A study of Mus musculus with 2 samples.

Results

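Among nuclei from brown adipose tissue of C57BL/6 mice kept at thermoneutrality (TN), 890 barcodes carried adipocyte transcripts but no Ucp1 UMI, a UMI being a molecular identifier that counts each captured molecule once. They are 890 of the 1303 TN barcodes that had 200 or more genes detected and less than 5% of UMIs from mitochondrially encoded genes (68.3%, 65.7 to 70.8), and 34.9% of the 2551 TN barcodes deposited. The barcodes were chosen by measured values. A is the sum of UMIs of Pparg, Ppara, Acsl1, Pde3b, Lipe, Plin1, Acvr1c and Cidea, S the sum over Pdgfra, Dcn, Lama2, Ptprb, Flt1, Mrc1, F13a1 and Ttn, and W the sum over Nnat, Slc7a10, Tshr and Aldh1a1. A selected barcode has an A of at least 4, an A above its S, a W under 4 and 0 Ucp1 UMIs. The same filter left 107 adipocyte nuclei with a Ucp1 UMI, 80 with a W of 4 or more, 169 barcodes with A at or below S and 57 with A above S but under 4. Parentheses after a value hold its 95% interval, which covers counting error only.

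The study has 2 single-nucleus libraries, one from mice that had a transient acute cold exposure 4 days earlier (1cyc) and one from TN mice. Each pooled the nuclei of 5 C57BL/6 mice, so the mouse of a nucleus is not recorded, there was no replicate check, and an effect of cold cannot be told apart from one of the library. No test between classes or conditions was made. Because the selection was made on its own values, every comparison of it with other TN classes is a description.

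Brown adipocytes burn fatty acids and glucose to make heat. Ucp1 lets protons leak back into the mitochondrial matrix, so that respiration releases heat in place of ATP. Noradrenaline from sympathetic nerves drives this through beta-adrenergic receptors and cAMP, which raise lipolysis and Ucp1 transcription. At thermoneutrality this drive is low, and brown adipocytes store lipid in larger droplets. Pparg is the master regulator of adipocyte differentiation, and Ppara a receptor for fatty acids that is more active in brown than in white adipocytes.

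The gene whose UMIs define the selection lies at chr8:83290352-83298452 on the plus strand of mm10 in GENCODE M21, and Nrg4, a growth factor gene of brown fat, at chr9:55220222-55326844 on the minus strand. Their promoters are shown because one is the gene absent by rule and the other, which the rule did not use, is among the genes furthest above the barcodes with A at or below S. Each run is 300 bases around the RefSeq start in GRCm38.p6, at chr8:83290098-83290397 on the plus strand and chr9:55283576-55283875 on the minus strand. The Nrg4 run is at a RefSeq start inside the GENCODE gene, which itself starts at 55326844 on the minus strand. Capitals mark the nuclear receptor half-site AGGTCA or, where it lies on the other strand, its reverse complement.
Ucp1: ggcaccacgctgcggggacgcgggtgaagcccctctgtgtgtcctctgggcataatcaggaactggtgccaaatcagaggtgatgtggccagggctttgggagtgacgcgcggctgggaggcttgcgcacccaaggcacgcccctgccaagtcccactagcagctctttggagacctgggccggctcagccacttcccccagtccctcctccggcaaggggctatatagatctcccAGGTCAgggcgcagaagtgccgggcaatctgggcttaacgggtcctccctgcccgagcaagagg
Nrg4: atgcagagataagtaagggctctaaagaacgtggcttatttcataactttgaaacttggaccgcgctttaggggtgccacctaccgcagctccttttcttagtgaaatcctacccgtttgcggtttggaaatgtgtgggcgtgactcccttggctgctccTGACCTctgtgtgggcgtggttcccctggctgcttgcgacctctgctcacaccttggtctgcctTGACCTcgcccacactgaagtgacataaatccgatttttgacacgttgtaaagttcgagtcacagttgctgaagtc
The half-site was in 16.3% of the 32851 RefSeq promoters of this length, on either strand. Of the 24 genes named below for the selection against the barcodes with A at or below S, 15 had a RefSeq promoter that was searched. Of them, 1 of the 7 higher genes and 2 of the 8 lower genes held it.

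The members were shallow. They held 894378 UMIs in all, with a median of 836 per nucleus, a range from 501 to 13942 and a median of 542 detected genes. The median A was 13 and the highest 64. A median of 5 of the 8 genes behind A was detected per nucleus, and 860 nuclei (96.6%) had at least 3 of them. No S gene was seen in 797 members (89.6%) and no W gene in 752 (84.5%). At the edges of the rule, 26 members had an A of exactly 4 and 22 barcodes with A above S were left out at an A of 3. The adipocyte genes outside the rule, such as Dgat2 and Cidec, summed to 4740 CPM (counts per 1000000 UMIs of the class) in the first and 2481 CPM in the second. The W limit kept 15 nuclei at 3 and left out 6 at 4, and A minus S was 1 in 4 members and 0 in 2 barcodes left out at an A of 4 or more. The mitochondrial limit weighed most, since 748 further TN barcodes met every other condition at 5% or more, with a median A of 10. Scrublet, a caller of doublets, marked 10 of the 1303 TN nuclei, 6 of them in the selection, and they were kept.

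**Figure D1:**
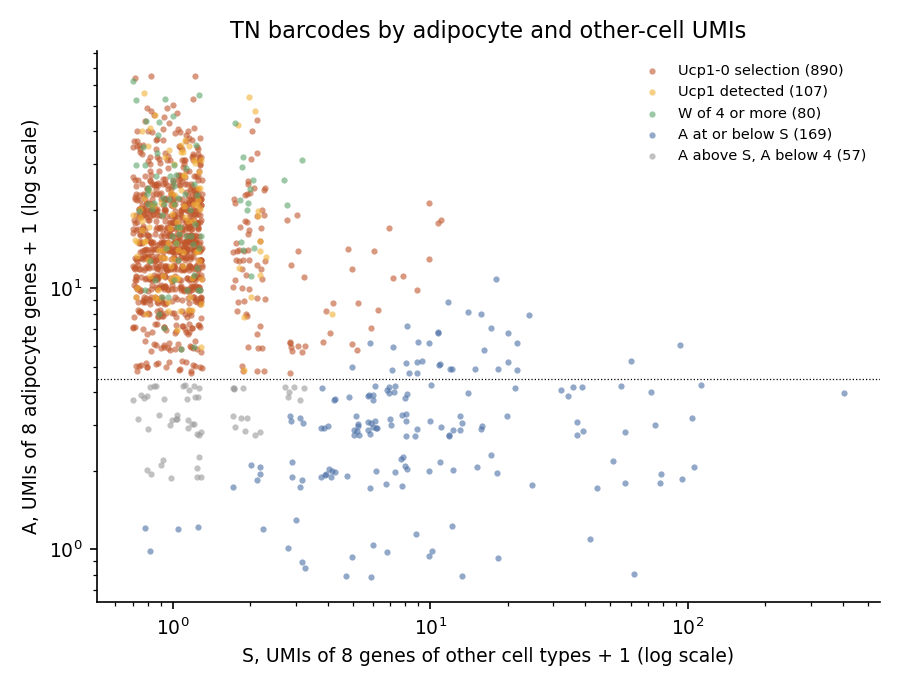
TN barcodes that passed the filters, by S plus 1 (horizontal, UMIs, log scale) and A plus 1 (vertical, UMIs, log scale), 1 point per barcode with a small random offset. The 890 selected nuclei lie above the dotted line, which marks an A of 4, and 797 of them have an S of 0.

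A few barcodes stand apart. In 3 members 81.5% to 94.9% of UMIs were haemoglobin, and these members held 30117 UMIs, 3.37% of the selection. They also include the deepest member, and the deepest of the others had 3466 UMIs. A second set of 48 members (5.39%) held at least 3 UMIs of a marker list of another cell type, 22 of fibroblasts or progenitors, 20 of endothelial cells, 10 of mural cells (pericytes and smooth muscle), 3 of macrophages, 1 of lymphoid and 1 of Schwann cells. Their median depth was 1459 UMIs and their median A 7, against 820 UMIs and an A of 14 in the other 842 members. In all, 6 cell barcodes occurred in both libraries, 3 of them in the selection and 1 in the selections of both.

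In the 1cyc library 1065 of 4321 barcodes (24.6%) passed the filters and in the TN library 1303 of 2551 (51.1%). Total depth was 2469900 UMIs in 1cyc and 2745808 in TN, and the median mitochondrially encoded share per barcode was 22.1% in 1cyc and 4.76% in TN.

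The brown adipocyte label was checked on genes the rule did not use. Of 15 further brown markers, 14 had UMIs in the selection, and together they stood at 5748 CPM, against 1480 CPM in the nuclei with a W of 4 or more and 2087 CPM in the barcodes with A at or below S. Most of that sum came from Esrrg and Ebf2, described below, with 2872 and 1128 of its 5141 UMIs. Against the barcodes with A at or below S, 5 of 6 measured brown markers, out of 15 listed, were at least 2-fold higher. The other, Ebf2, was lower. Over all measured genes outside the rule, 25.7% were at least 2-fold higher. The brown count was not tested against that share. A marker counts as measured by its UMIs in both classes together, and the selection holds 894378 UMIs against 266429. Markers high in the selection are therefore measured more readily, which favours this count. Of 13 further white adipocyte markers, 8 had UMIs, at 503 CPM in the selection against 3523 CPM in the nuclei with a W of 4 or more. Against the barcodes with A at or below S, at 229 CPM, the white markers were also higher in the selection, with a ratio of 2.20 (1.68 to 2.92). Agt, Hoxc8, Hoxc9, Hoxc10 and Tcf21 were at 0 in the selection. They were also at 0 in the nuclei with a W of 4 or more, so they do not separate the classes. Support from single defining genes was uneven. Prdm16, a coregulator that sets brown fat identity, was at 330 CPM (293 to 370). Dio2, which activates thyroid hormone, rested on 5 UMIs, the elongase gene Elovl3 on 1, Zic1 on 7 and Adrb3, the adipocyte beta-adrenergic receptor, on 25. Cpt1b was listed at 0 in every class, as were Cox4i1 and Etfb, genes that every respiring cell uses, and Gapdh had 1 UMI in the selection. A gene listed at 0 in these nuclei is therefore not shown to be absent.

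That limit also applies to the 0 that gives the selection its name. The 997 TN adipocyte nuclei with a W under 4 held 147 Ucp1 UMIs, a level of 147 CPM, and 107 of them had a Ucp1 UMI (10.7%, 8.88 to 12.8). At the median depth of 837 UMIs that level corresponds to 0.123 UMIs per nucleus. If all 997 nuclei had this single level, 133 would show a UMI at their own depths. In 4 bins of nuclei of like number, from the shallowest to the deepest, 11.2%, 8.84%, 8.47% and 14.5% showed one, where the single level gives 20.7, 26.2, 32.7 and 53.5 nuclei against 28, 22, 21 and 36 found. Of the 107 nuclei with Ucp1, 82 had 1 UMI and the highest had 6. In barcodes with A at or below S, 3 of 169 had a Ucp1 UMI (1.78%, 0.368 to 5.10) at a median depth of 1261 UMIs. The 2 deeper bins thus held fewer nuclei with Ucp1 than one level gives, and a 0 in a single nucleus of this depth does not show absence. Whether the 890 members lack Ucp1 or hold it below detection was not tested. The share was 19.9% in 1cyc (179 of 901 nuclei, 17.3 to 22.6), where one level would give 225, against 10.7% in TN.

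**Figure D2:**
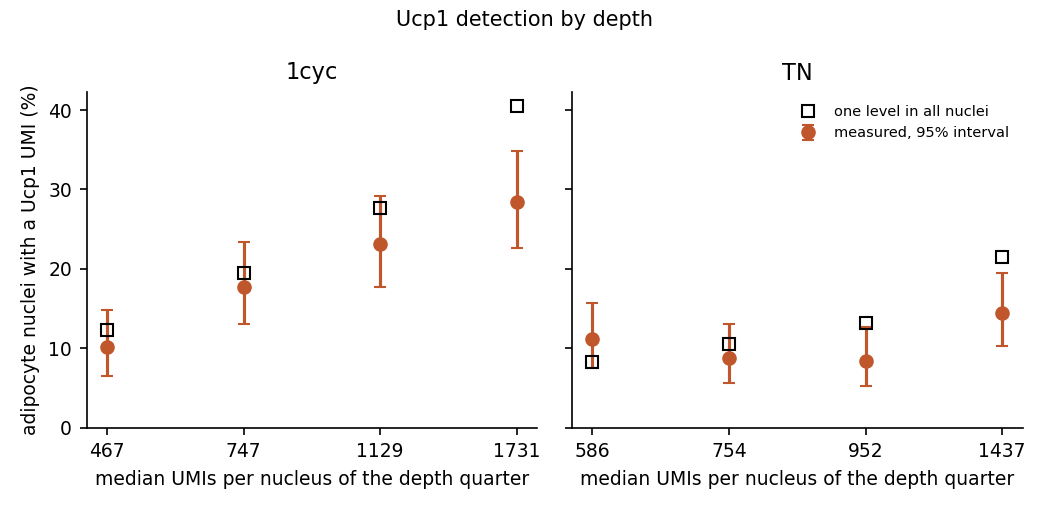
Share of adipocyte nuclei with a Ucp1 UMI (vertical, percent) in 4 bins of depth (horizontal, median UMIs per nucleus of the bin), for 1cyc and TN. Circles are the measured shares with 95% Clopper-Pearson intervals and squares the shares that one Ucp1 level in all nuclei would give; in the deepest TN bin the measured share is 14.5%.

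Against the TN barcodes with A at or below S, the selected nuclei stood higher in most measured genes of triglyceride synthesis, fatty acid synthesis and oxidation, and brown fat regulation. A gene counted as measured from 100 UMIs in the 2 classes together. Of 2181 measured genes outside the rule, 560 (25.7%) stood 2-fold or more above the other barcodes and 232 (10.6%) 2-fold or more below. Of these, 300 and 172 had an interval wholly past 2-fold. The barcodes with A at or below S are a mixture. They held fibroblast markers at 3318 CPM, skeletal muscle markers at 3134 CPM, endothelial markers at 1648 CPM and macrophage markers at 1475 CPM, against 313, 30.2, 415 and 124 CPM in the selection. The genes of A were higher by construction. Ppara had 5007 CPM in the selection against 297 CPM, Pparg 4670 against 631 CPM, Plin1, a droplet coat protein, 404 against 22.5 CPM, and Cidea, which enlarges lipid droplets, 666 against 37.5 CPM.

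Outside the rule and the unnamed models, the gene with the highest lower interval bound was Dgat2, which makes the last step of triglyceride synthesis. It stood at 872 CPM (812 to 936) in the selection against 30.0 CPM, a ratio of 29.0 (14.7 to 67.5). Pck1, which makes glycerol backbones for triglyceride in fat cells, had 763 against 37.5 CPM, a ratio of 20.3 (10.98 to 42.6). Pank1, which starts coenzyme A synthesis, had 2102 against 161 CPM. Nrg4, a secreted growth factor of brown fat, had 1430 against 101 CPM, and Erbb4, a receptor for neuregulins, 2621 against 195 CPM. Ntrk3, the receptor of neurotrophin 3, had 2547 against 203 CPM. The cell adhesion gene Cdh2 had 523 against 26.3 CPM, the sodium channel modulator gene Fgf14 1057 against 71.3 CPM, and Tmem45b, which encodes a membrane protein, 1268 against 82.6 CPM. Lncbate1, a long noncoding RNA of brown fat, rested on 191 UMIs against 1, a ratio of 56.9 (10.1 to 2259). Strip2 and Bbof1 had 149 and 135 UMIs in the selection and 0 in the other barcodes. Against a floor of 3 counts over that group they were at least 14.8-fold and at least 13.4-fold higher.

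Among the 12 genes furthest below were genes of macrophages, muscle and extracellular matrix. Lyz2, a lysozyme of macrophages whose reads can be shared with its paralog Lyz1, had 2.24 CPM in the selection against 739 CPM. Genes of the contractile apparatus and its calcium store followed, with Trdn at 7.83 against 946 CPM, Neb at 7.83 against 927 CPM, Mybpc1 at 5.59 against 492 CPM and Mylk4 at 6.71 against 507 CPM. Extracellular matrix genes were also low, with Fbn1 at 11.2 against 372 CPM and Smoc2 at 10.1 against 372 CPM. The remaining 5, Fgf13, Filip1l, Agbl1, Sema3c and Bicc1, had ratios between 0.0150 and 0.0526.

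**Figure D3:**
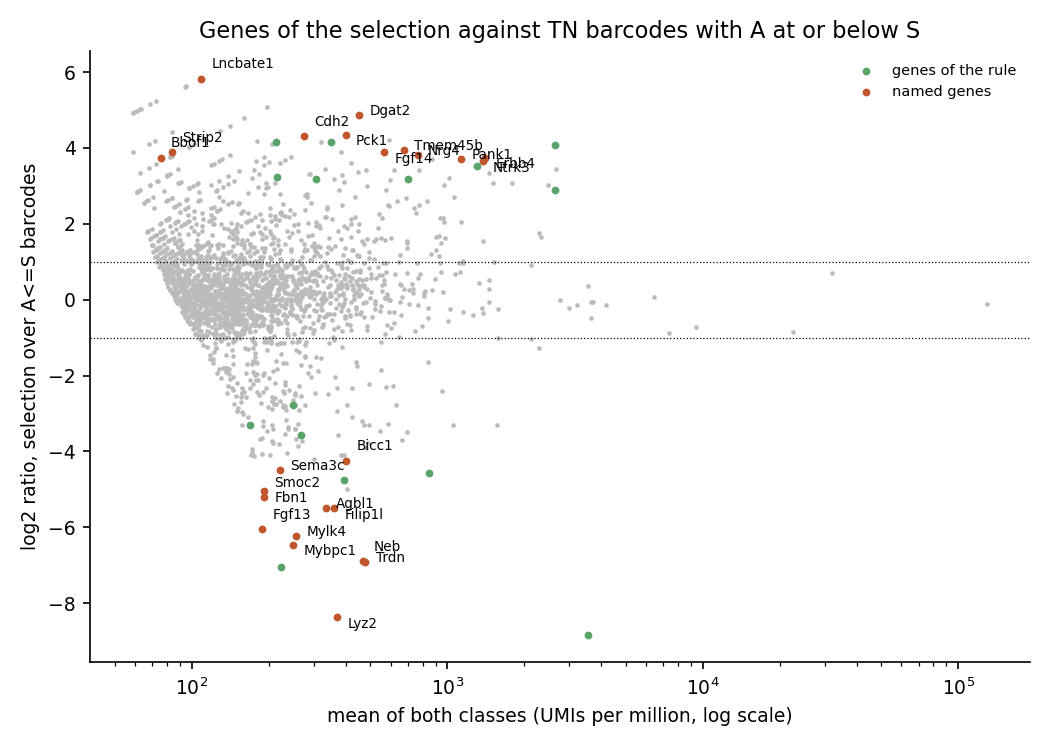
Log2 ratio of the selection over TN barcodes with A at or below S (vertical) against the mean CPM of both classes (horizontal, log scale) for each measured gene. Red points are the 12 highest and 12 lowest genes by interval bound, green points the genes that defined the classes, and the dotted lines mark 2-fold; Dgat2 lies at a ratio of 29.0.

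Read by function, the list medians of log2 ratios ran from 3.66 to -0.34, beside a median of 0.28 over all 2181 genes. A gene can reach 100 UMIs through the selection alone, which holds 894378 UMIs against 266429. Genes high in the selection are therefore measured more readily, which favours counts of higher genes in the lists below. With a minimum of 50 UMIs, genes at least 2-fold lower went from 232 to 575 and the median of all genes to 0.19. Genes low in both classes are not among those measured. Brown fat regulators had 6 of 8 measured members at least 2-fold higher, out of 19 listed. Prdm16 had a ratio of 12.6 (6.02 to 31.5), Ppargc1b, a coactivator of mitochondrial genes, 9.23 (7.03 to 12.4), Esrrg, an orphan nuclear receptor that drives oxidative genes, 8.39 (6.88 to 10.3), and Ppargc1a 2.71 (1.76 to 4.36). Nfia, a transcription factor of the brown fat program, had 1.89 (1.70 to 2.11). Ebf2, which marks brown fat precursors as well as adipocytes, was the exception at 1261 CPM in the selection against 1471 CPM, a ratio of 0.857 (0.763 to 0.964).

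All 5 measured thermogenic effectors of 13 listed were at least 2-fold higher. Kcnk3, a potassium channel of brown fat, had 237 against 18.8 CPM, and Slc36a2, an amino acid transporter at the brown adipocyte surface, 356 against 26.3 CPM. In adrenergic and cAMP signalling 10 of 12 were higher. Adra1a, an alpha-adrenergic receptor, had a ratio of 8.37 (4.73 to 16.4), Prkar2b, a regulatory subunit of protein kinase A, 1613 against 124 CPM, and Akap1, which anchors that kinase at mitochondria, 608 against 33.8 CPM, a ratio of 18.0 (9.42 to 39.6).

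All 11 measured genes of fatty acid uptake and triglyceride synthesis were at least 2-fold higher, with a median log2 ratio of 3.05. The 3 lowest were the uptake gene Cd36 at a ratio of 2.04 (1.76 to 2.38), the acyltransferase gene Agpat3 at 2.18 (1.19 to 4.39) and Lpl, which frees fatty acids from lipoproteins, at 2.27 (1.77 to 2.94). All 7 measured fatty acid synthesis genes were higher. Elovl6, an elongase, had 408 against 33.8 CPM, Mlxipl, which encodes the carbohydrate-responsive factor ChREBP, 608 against 56.3 CPM, and Acacb, whose product malonyl-CoA restrains fatty acid oxidation, 1723 against 210 CPM. All 11 measured fatty acid oxidation genes were higher, among them Hadha of the trifunctional protein at 6.49 (4.15 to 10.7). Of 14 lipolysis and droplet coat genes, a list that leaves out Lipe and Plin1 as genes of the rule, 4 were measured and 1 was higher. The list median of -0.34 turned with the setting, to 1.46 with a minimum of 50 UMIs, 0.53 with up to 10% mitochondrially encoded UMIs, 0.33 after thinning to 800 UMIs and 0.01 with TMM. Cidec, which fuses lipid droplets, was at 455 against 33.8 CPM. Fabp4, a fatty acid binding protein of adipocytes that endothelial cells and macrophages also make, was at 1385 against 2864 CPM, a ratio of 0.484 (0.442 to 0.530), and Plin2 at 124 against 191 CPM.

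Glucose uptake and glycolysis had 7 of 8 higher, among them Pdk4, which inhibits pyruvate dehydrogenase, at 720 against 48.8 CPM. Nuclear-encoded electron transport had 4 of 6 higher, with a median log2 ratio of 1.01, and insulin signalling 6 of 14, with a median of 0.52. Over all 2181 measured genes 25.7% were at least 2-fold higher and the median was 0.28. No list count was tested against that share. In nuclear receptors the median was 0.04, and Rora, a receptor of the circadian clock, was at 1042 against 2109 CPM. Secreted factors had 5 of 5 higher, among them Vegfa, the vascular growth factor, at 865 against 109 CPM, and creatine and calcium cycling 2 of 3. TMM scaling, which estimates class factors from the bulk of genes, moved the median of all genes up by 0.35 on the log2 scale. With TMM, 770 genes were higher and 180 lower.

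**Figure D4:**
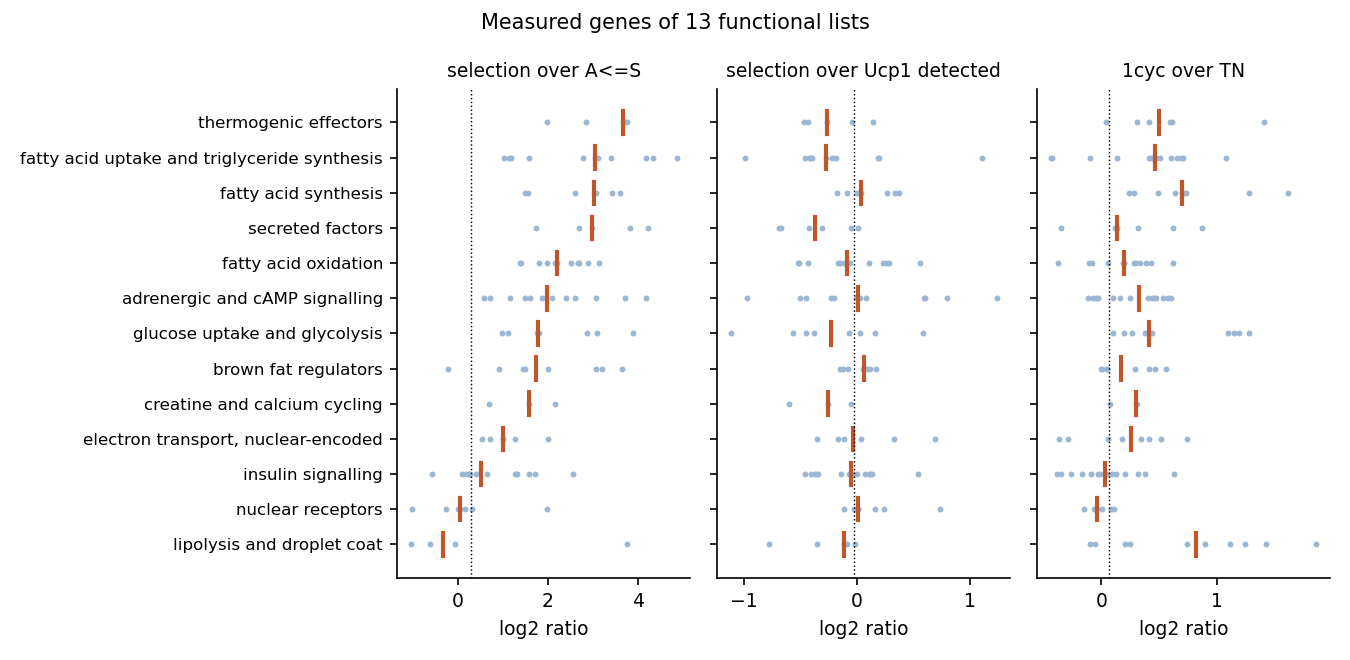
Log2 ratios (horizontal) of the measured genes of 13 functional lists (rows) for the selection over TN barcodes with A at or below S, the selection over Ucp1-detected TN nuclei, and 1cyc over TN nuclei of the same rule. Points are genes, red bars list medians and dotted lines the median of all measured genes; thermogenic effectors have a median of 3.66 on the left.

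Set beside the 107 TN adipocyte nuclei with a Ucp1 UMI, 86.9% of measured genes lay within 1.5-fold, and the gaps with the narrowest intervals were in Gnas and Pck1. Of 1841 measured genes, 144 (7.82%) stood 1.5-fold or more above and 98 (5.32%) 1.5-fold or more below the Ucp1-detected nuclei. The median gene among the 144 had only 8 UMIs in the Ucp1-detected nuclei. An interval wholly past 1.5-fold was found for 5 of the 144, which are Lifr and 4 haemoglobin genes, and for 2 of the 98, Gnas and Pck1. The erythroid list stood at 31421 CPM in the selection against 499 CPM; 3 members were haemoglobin-rich and no Ucp1-detected nucleus was. TMM scaling moved the median gene up by 0.18 on the log2 scale and gave 243 higher and 33 lower. Without the haemoglobin-rich barcodes 158 were higher and 74 lower. Median depth was 836 UMIs in the selection and 857 in the Ucp1-detected nuclei.

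Gnas, which encodes the stimulatory G protein subunit that couples adrenergic receptors to cAMP and lies in a locus with transcripts on both strands, had 1393 CPM (1317 to 1473) in the selection against 2740 CPM (2434 to 3073), a ratio of 0.509 (0.447 to 0.580). Pck1 had 763 against 1516 CPM, a ratio of 0.503 (0.423 to 0.601). Tfrc, the transferrin receptor, had 333 against 650 CPM, and Hk2, a hexokinase, 104 against 226 CPM, a ratio of 0.460 (0.291 to 0.754). Sec61a2, of the translocon, had a ratio of 0.470 (0.295 to 0.778), Sptan1, a spectrin, 0.534, Actn2, an alpha-actinin, 0.516 (0.335 to 0.824), and Tob2, which represses proliferation, 0.604 (0.455 to 0.815). With TMM scaling Gnas, Pck1, Tfrc, Hk2, Sec61a2, Sptan1, Actn2 and Tob2 stayed below 1.

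The 8 genes furthest above rested on 4 to 16 UMIs in the Ucp1-detected nuclei. Lifr, a cytokine receptor subunit, had 247 CPM in the selection against 75.3 CPM, a ratio of 3.28 (1.64 to 7.69). Maml2, a coactivator of Notch, had 239 against 94.1 CPM, and without nuclei holding other cells' markers 177 against 81.3 CPM. Sdccag8, Mtm1, Smurf2, Gulp1, Slit3 and Apc had ratios between 1.997 and 3.36. Markers of other cells also differed between these classes. The endothelial list stood at 415 CPM in the selection against 264 CPM, the mural list at 203 against 47.1 CPM, the macrophage list at 124 against 47.1 CPM and the fibroblast list at 313 against 320 CPM. Their part in the other ratios was not tested, beyond the values without those nuclei.

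Prdm16 had a ratio of 0.898 (0.642 to 1.29), Ppargc1a 1.08 (0.700 to 1.74), Ppargc1b 0.943 (0.815 to 1.09) and Esrrg 0.919 (0.825 to 1.03). None of the 8 measured brown fat regulators and none of the 5 thermogenic effectors passed 1.5-fold, where 7.82% of all measured genes did so upwards and 5.32% downwards, so a count of 0 in lists this short is near the background. Adrenergic and cAMP signalling was split, with 4 of 12 past 1.5-fold upwards and 1, Gnas, downwards. Those above were Creb1, Adcy3, Pde7b and Rgs2, each with an interval that spans 1. The summed list had a ratio of 0.783 (0.732 to 0.838). Nrg4 had 1430 against 1487 CPM, a ratio of 0.961 (0.814 to 1.14). In the list of uptake and triglyceride synthesis genes 8 of 11 members were below 1, with a median log2 ratio of -0.27, beside -0.03 over all genes. Dgat2 was at 872 against 1149 CPM, a ratio of 0.759 (0.627 to 0.927). Adipocyte markers outside the rule, which include Dgat2 and Pck1, were mostly lower as well. Of 9 measured, 8 were below 1, with a summed ratio of 0.819 (0.767 to 0.875). Whether the triglyceride genes differed beyond these markers was not tested. Among the secreted factors, 5 of 6 were below 1, and Angpt1, a ligand of the endothelial receptor Tek, was at 1190 against 1600 CPM. An interval that spans 1 does not show that the classes had the same level.

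The members differed among themselves in a small number of genes. After each nucleus was thinned to 500 UMIs, the Fano factor, the variance over the mean, which is 1 for counting noise alone, had a median of 1.05 over 1683 genes with at least 50 UMIs, and 23 genes exceeded 1.5. Malat1, an abundant nuclear RNA, was highest at 5.37, followed by Prkg1, a cGMP-dependent kinase of smooth muscle and other cells, at 4.62. Fabp4 had 2.40, Plxdc2 2.33, Slit3 2.21, Ghr, the growth hormone receptor, 2.19, Car3, a carbonic anhydrase of adipocytes and muscle, 2.03, Auts2 1.89, Gnas 1.80 and Tusc3 1.77. Gnas was found in 391 of the 890 thinned members (43.9%), with at most 8 UMIs, and Ghr in 668 (75.1%), with at most 18.

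Part of that variation sat in the 48 members with other cells' markers, which hold 8.47% of the selection's UMIs. They held 152 of the 188 Prkg1 UMIs (80.9%), 77 of the 95 UMIs of Kcnq5, a potassium channel (81.1%), 102 of the 175 Plxdc2 UMIs (58.3%) and 337 of the 1239 Fabp4 UMIs (27.2%). Erbb4, Ghr and Pck1 were spread the other way, with 2.30%, 2.60% and 3.23% of their UMIs in these 48 members. That did not hold for all adipocyte genes. The adipocyte markers outside the rule, Fabp4 among them, summed to 8123 CPM in the 48 and 7884 CPM in the other 842. In the other 842 members the Fano factor of Prkg1 was 1.12, of Fabp4 1.17 and of Plxdc2 1.53, while Slit3 kept 2.33, Ghr 2.14, Car3 2.03, Gnas 1.79 and Tusc3 1.73. Of the 10 genes, 7 were again among the highest 10. Slit3, Ghr, Car3 and Auts2 were lower in the selection, at 301, 3529, 1088 and 174 CPM, than in TN nuclei with a W of 4 or more, at 3302, 9053, 7495 and 1502 CPM. Gnas and Tusc3 stood the other way, at 1393 and 1012 CPM in the selection against 413 and 199 CPM.

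**Figure D5:**
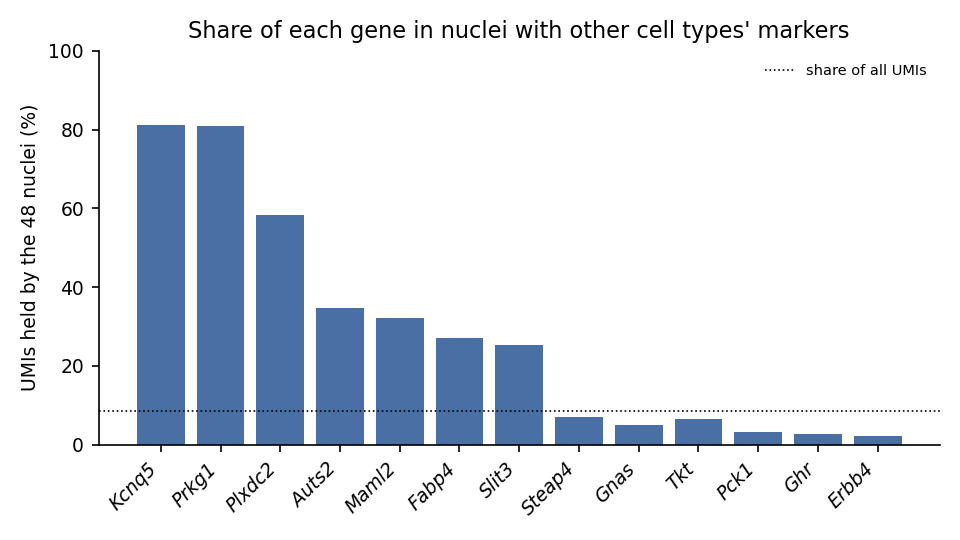
Share of the UMIs of 13 genes (vertical, percent, from 0) held by the 48 members with at least 3 UMIs of another cell type's marker list. The dotted line is their share of all UMIs of the selection, 8.47%; Kcnq5 and Prkg1 stand above 80% and Erbb4 at 2.30%.

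Summed over a list, the members differed as follows. Per 500 UMIs, the 19 brown fat regulators had a median of 5 UMIs and a range between the 10th and 90th percentiles of 2 to 10, and only 12 members (1.35%) had none. The fatty acid synthesis list had a median of 2 and the 90th percentile was 5. The Fano factor of the summed list was 1.39 for brown fat regulators, 1.25 for fatty acid synthesis and 1.82 for lipolysis and droplet coat, against a median of 1.05 over single genes. It was 2.82 for the endothelial and 2.78 for the mural marker list. Some list levels differed with depth. In 3 bins of members from the shallowest to the deepest, brown fat regulators stood at 12033, 11794 and 10219 CPM and thermogenic effectors at 3377, 3285 and 2823 CPM. Lipolysis and droplet coat ran the other way, at 2549, 2627 and 2965 CPM, and fatty acid synthesis had no one direction, at 4879, 5375 and 4751 CPM. Markers of other cells moved with depth too, with the endothelial list at 181, 209 and 618 CPM and the erythroid list at 740, 405 and 60229 CPM. Their part in these differences was not tested.

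After cold, the same rule found 722 of 1065 filtered 1cyc nuclei (67.8%, 64.9 to 70.6), a share close to the 68.3% in TN. Adipocyte nuclei with a Ucp1 UMI were 16.8% (14.6 to 19.2) of filtered nuclei in 1cyc against 8.21% (6.78 to 9.84) in TN. The filters kept 24.6% of the 1cyc and 51.1% of the TN barcodes. Of all barcodes deposited, the rule found 16.7% in 1cyc and 34.9% in TN. Those with a Ucp1 UMI were 4.14% and 4.19%, so both comparisons change with the barcodes counted. Among nuclei without a Ucp1 UMI, the list medians furthest above that of all genes in 1cyc at the main setting were those of lipolysis and droplet coat and of fatty acid synthesis. Of 2870 measured genes, 32 (1.11%) stood 2-fold or more above TN and 21 (0.732%) 2-fold or more below, and 98.2% lay within 2-fold. TMM scaling moved the median gene down by 0.11 on the log2 scale and gave 20 higher and 31 lower. Median depth was 857 UMIs in 1cyc and 836 in TN, but 128 of the 722 1cyc nuclei had under 500 UMIs, the lowest count of any barcode deposited for TN.

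Pnpla3, a lipid droplet protein that insulin and carbohydrate feeding induce in mice, had 358 CPM (316 to 404) in 1cyc and 98.4 CPM (78.9 to 121) in TN, with a ratio of 3.64 (2.85 to 4.69). Acot11, a thioesterase that cold induces in brown fat, had 256 against 71.6 CPM, the kinase gene Pim1 237 against 73.8 CPM and the desaturase gene Scd1 209 against 68.2 CPM. Abhd15 had 236 against 82.7 CPM, the glycogen-targeting subunit gene Ppp1r3b 230 against 80.5 CPM, Tkt of the pentose phosphate pathway 846 against 347 CPM and Acly, which supplies cytosolic acetyl-CoA, 322 against 133 CPM. Of 10 measured lipolysis and droplet coat genes, 8 were above 1 and 4 at least 2-fold, with a median log2 ratio of 0.82. Besides Pnpla3 these were G0s2, an inhibitor of the lipase ATGL, at 2.69 (1.76 to 4.19), and the droplet coat genes Plin2, with 293 CPM in 1cyc and 124 CPM in TN, and Plin3 at 2.17 (1.44 to 3.32). Over the alternative settings the lipolysis median ran from 0.21 to 0.89, and that of fatty acid synthesis from 0.48 to 0.78. The summed lipolysis list had a ratio of 1.27 (1.20 to 1.34). That was below the summed glucose (1.33), adrenergic and cAMP (1.31) and thermogenic effector (1.30) lists. Adipocyte markers outside the rule, some of them also in the functional lists, were higher in 1cyc too. Of 11 measured, 9 were above 1, with a summed ratio of 1.26 (1.22 to 1.30). Whether these lists moved beyond the adipocyte markers was not tested. All 9 measured fatty acid synthesis genes were above 1, with a median log2 ratio of 0.70 beside 0.07 over all genes. Their summed level was 7398 CPM in 1cyc and 4951 CPM in TN, with a ratio of 1.49 (1.44 to 1.56). All 10 measured glucose genes were above 1 too, with Hk2 at 2.21 (1.71 to 2.88) and Pkm at 2.14 (1.65 to 2.78). Ucp3, a relative of Ucp1, rested on 69 against 32 UMIs, a ratio of 2.66 (1.72 to 4.18), while the 8 nuclear receptors had a median of -0.04 and insulin signalling 0.03.

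Gnas and Hk2 stood above the TN members both in the Ucp1-detected TN nuclei and in the 1cyc nuclei, with Gnas at 2124 CPM after cold, against 1393 CPM in the TN members, with a ratio of 1.52 (1.41 to 1.64). Both ratios use the same TN members. Pck1 was at 836 CPM after cold, against 763 CPM in the TN members, with a ratio of 1.10 (0.981 to 1.22). The 4 lowest ratios belonged to haemoglobin genes (no 1cyc nucleus was haemoglobin-rich) and the next to Steap4, a metalloreductase, with 26.2 CPM in 1cyc and 111 CPM in TN, and a ratio of 0.236 (0.137 to 0.389). Gulp1 had 0.363 (0.268 to 0.485), Ppfibp1 0.339 (0.227 to 0.493), Svep1 0.461 (0.386 to 0.548) and Slit3 0.453 (0.356 to 0.573). Prkg1 had 0.288 (0.203 to 0.402), Plxdc2 0.359 (0.257 to 0.493) and Kcnq5 0.350 (0.219 to 0.542).

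Nuclei with other cells' markers were 17 of 722 in 1cyc (2.35%) and 48 of 890 in TN (5.39%). In 1cyc the endothelial list summed to 190 CPM, against 415 CPM in TN, the fibroblast list at 160 against 313 CPM, the mural list at 103 against 203 CPM and the macrophage list at 73.0 against 124 CPM. White adipocyte markers outside the rule summed to 324 CPM after cold, against 503 CPM in TN. Without those nuclei 26 genes stood 2-fold or more above TN in 1cyc and 11 below. Prkg1 was then 0.743 (0.420 to 1.29), Kcnq5 0.840 (0.378 to 1.81) and Plxdc2 0.669 (0.446 to 0.991). Steap4 was 0.215 (0.120 to 0.363), Gulp1 0.340 (0.247 to 0.462) and Pnpla3 3.47 (2.71 to 4.49).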

How the data were processed

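Single-nucleus libraries of brown adipose tissue, 1 per condition, were analysed from the UMI counts per gene and barcode that the authors deposited, raw and with no normalization. Alignment to mm10 and counting used Cell Ranger, version 3 in the submitters' processing notes and 3.1.0 per the file headers; whether intronic reads were counted is not given in the sources used here. Nuclei were sorted and the barcodes already filtered, per the series' design text. Depth was 2469900 UMIs over 4321 barcodes in 1cyc, from 262 UMIs upwards, and 2745808 over 2551 in TN, from 500 upwards.

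UMIs were summed over the nuclei of a class and scaled to CPM, per 1000000 UMIs, not divided by gene length, so levels of different genes are not compared. The CPM ratio was taken for genes whose 2 sums together reached 100 UMIs, which the selection can reach alone. Intervals are exact at 95% (Poisson for a level, conditional binomial for a ratio, Clopper-Pearson for a share) and hold nothing of the spread between mice. Where a sum was 0, the floor was 3 counts. The genes named were those with the interval bound furthest from 1, 12 per direction against the barcodes with A at or below S and 8 in the other comparisons, plus the 10 highest Fano factors; genes of the mitochondrial genome, ribosomal proteins and haemoglobin, the rule's genes and unnamed models were left out of the ranking. The rule, the 13 functional and 14 marker lists and the tests were chosen with earlier results of these data known. Ratios were checked on simulated data.

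Python 3.11.15 with NumPy 2.4.6, pandas 2.3.3, SciPy 1.17.1, scanpy 1.11.5 (Scrublet) and matplotlib 3.10.9 was used, and edgeR 4.0.16 in R 4.3.3 for TMM factors. Gene positions came from GENCODE M21.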

Additional observations from a re-analysis of the deposited data

How the results depend on the processing

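The share of 68.3% was 64.0% with at least 500 detected genes, 63.1% under 2% mitochondrially encoded UMIs, 63.9% with an A of at least 6, 71.5% with an A of at least 2 and 57.7% with a W of 0. Counts of genes past the fold move with the minimum of UMIs and with depth. Against barcodes with A at or below S, 897 genes were higher and 575 lower with a minimum of 50 UMIs, 303 and 63 with 200 UMIs, 292 and 53 after thinning to 500 UMIs, 265 and 58 after thinning to 800, and 182 and 25 under 2% mitochondrially encoded UMIs. Under 10%, 437 were lower. Against Ucp1-detected nuclei the same settings gave 465 and 300, 28 and 17, 70 and 35, 60 and 35, and 37 and 42; TMM gave 243 and 33, and 500 detected genes gave 63 lower. After thinning to 500 UMIs, 22 of the 144 higher and 12 of the 98 lower genes were shared. For 1cyc over TN, 96 were higher and 73 lower with a minimum of 50 UMIs, 17 and 10 with 200, 17 and 9 after thinning to 500 and 16 and 11 after thinning to 800; 6 were lower under 2% and 45 under 10%, TMM gave 20 higher, and 11 were lower without nuclei holding other cells' markers. The cause of each move was not tested, apart from the fewer genes measured at 200 UMIs and after thinning. Leaving out haemoglobin-rich barcodes everywhere, and leaving out nuclei with other cells' markers, were chosen after seeing the data. No list median or named gene that was past 1.5-fold changed direction under any alternative run. Of the 10 genes with the highest Fano factors, 8 were shared at 800 UMIs and 9 over 20 draws. No paired analysis was possible because each condition is 1 library, and no replicate could be left out for the same reason.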
